A study of Mus musculus with 16 samples.

Results

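The 10 genes described here code for proteins of pyroptosis, necroptosis and death receptor signaling. They were taken by gene symbol (Casp1, Casp4, Casp8, Gsdmd, Nlrp3, Mlkl, Ripk3, Zbp1, Fas and Ninj1) from the 55414 gene identifiers that were counted in each library, and each symbol matched 1 identifier. Their RNA was counted in chondrocyte-enriched cells from the epiphyses of newborn mice, in 4 groups of 4 libraries. Control cells came from wild type littermates, and mutant cells from heterozygous Notch2tm1.1Ecan mice, whose allele carries a stop codon so that NOTCH2 lacks the PEST domain and is stable. Cells of each genotype, from males and females pooled, were exposed for 6 h to vehicle (PBS) or to tumor necrosis factor α (TNFα) at 50 ng/ml. The allele is present in all cells of the mouse and not only in chondrocytes, and the cultures were enriched rather than purified.

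These genes act at the points where an inflammatory signal can end in a lytic death. In pyroptosis, NLRP3 assembles an inflammasome that activates caspase 1, and CASP4 of the mouse detects lipopolysaccharide in the cytosol. Both caspases cleave gasdermin D (GSDMD), whose free part forms pores in the plasma membrane. In necroptosis, RIPK3 phosphorylates MLKL, which then damages the membrane, and ZBP1 is a sensor of Z-form nucleic acids that can bring RIPK3 into action. FAS is a death receptor that recruits caspase 8, a protease that carries death receptor signals and also restrains necroptosis, and NINJ1 breaks the plasma membrane late in several forms of death. TNFα acts through receptors that can lead either to inflammatory transcription or to these routes of death, and the RNA level of a gene does not show whether its protein was activated.

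Counts on genes ranged from 3439726 (Notch2tm1.1Ecan cells with TNFα, replicate 4) to 44237300 (Notch2tm1.1Ecan cells with vehicle, replicate 4), with a median of 17062419 per library. Levels are given as CPM, the counts of a gene scaled to a normalized library size of 1000000. All 15 chondrocyte markers examined were detected in every group. Of markers of other cells, 7 of 9 for T and NK cells and 6 of 8 for neutrophils had no more than 3 counts in any library. Heyl, a Notch target gene, had 0.153 to 0.303 CPM in control and 1.45 to 2.32 CPM in Notch2tm1.1Ecan libraries with vehicle, without overlap. Over all genes, Notch2tm1.1Ecan vehicle replicate 1 was farther from the others of its group than they were from each other. The control libraries numbered 4 stood apart in genes that rise with TNFα. Icam1, an adhesion molecule gene that TNFα induces, had 447 CPM in control vehicle replicate 4 against 34.6 to 41.0 CPM in the other control libraries with vehicle. Over 228 genes that were at least 8-fold higher with TNFα, this library held a median of 16.5% of the way from the vehicle mean to the TNFα mean of the other control libraries, and control TNFα replicate 4 held 81.0%. Results that rest on these libraries are therefore given with and without them. Nothing beyond the label of biological replicate says that libraries of a group came from separate animals or cultures, so p values measure the spread between these libraries, which may be technical.

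Per kilobase of exon, Ninj1 had the highest level of the 10 genes in every group, from 23.8 ± 1.03 CPM per kb in Notch2tm1.1Ecan cells with vehicle to 75.1 ± 5.90 CPM per kb in control cells with TNFα (SD, n = 4). In control cells with vehicle the order was Ninj1, Ripk3 (16.6 ± 1.25 CPM per kb), Casp8, Fas, Gsdmd, Mlkl, Casp4, Zbp1, Casp1 and Nlrp3 (0.0422 ± 0.0368 CPM per kb). From Casp8 downward the libraries of each gene overlapped those of the next in that group. With TNFα, the first places in both genotypes were taken by Ninj1, Fas and Gsdmd, without overlap between neighbors, followed by Ripk3. Below that, Ripk3, Zbp1, Casp8, Mlkl and Casp4 overlapped in turn in control cells, and in Notch2tm1.1Ecan cells Ripk3 overlapped Zbp1 and Mlkl overlapped Casp4. Casp1 was the lowest in both genotypes with TNFα, at 0.300 ± 0.0804 CPM per kb in control and 0.634 ± 0.138 CPM per kb in Notch2tm1.1Ecan cells. The plot of levels by library shows these differences and the position of the control libraries numbered 4.

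**Figure D1:**
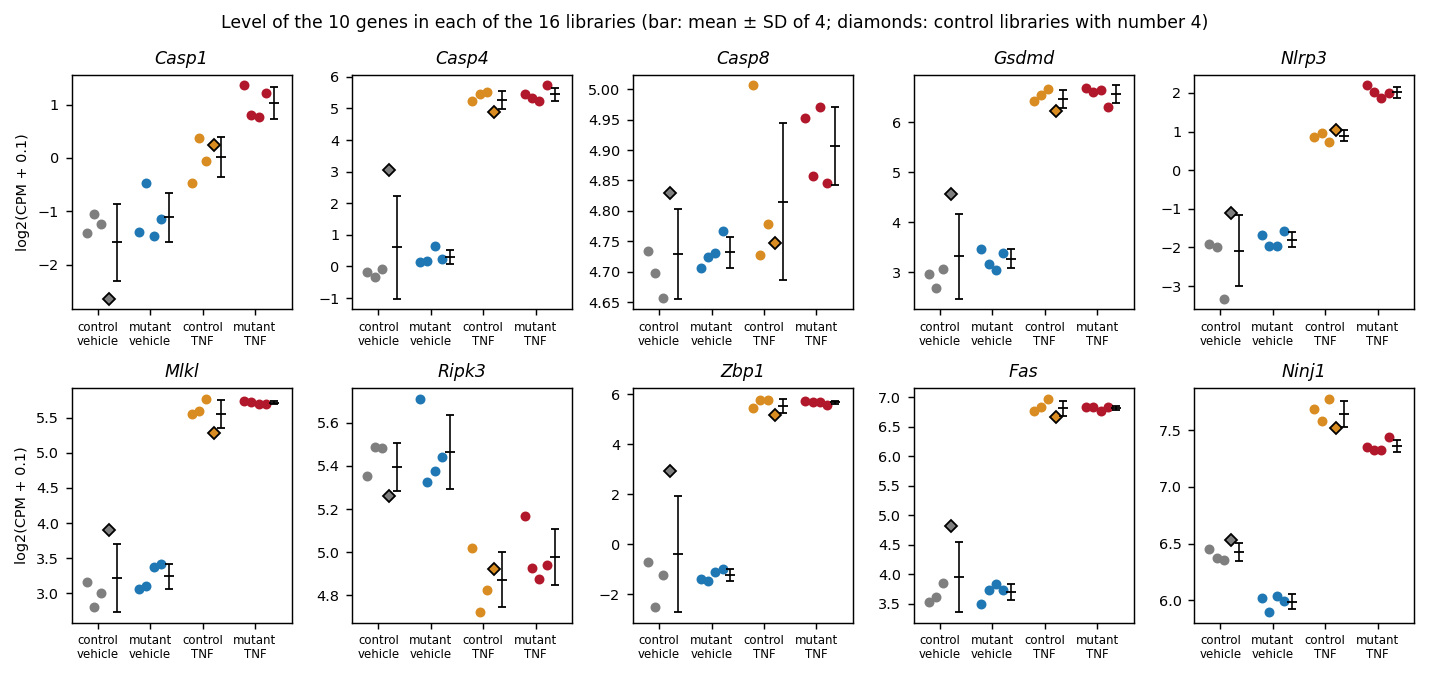
Level of each of the 10 genes as log2(CPM + 0.1) in the 16 libraries, by group (mutant, Notch2tm1.1Ecan), with diamonds for the control libraries numbered 4, bars for the mean ± SD of 4 libraries and a vertical axis that differs between panels. Control vehicle replicate 4 is the highest of its group for 8 of the 10 genes and the lowest for Casp1 and Ripk3.

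The first comparison asked how the genes respond to TNFα in each genotype. In control cells 8 of the 10 genes rose with TNFα and 1, Ripk3, fell, where 23.3% of the 19338 genes tested rose and 20.9% fell. In Notch2tm1.1Ecan cells 9 rose and Ripk3 fell, where 22.6% of 19633 genes rose and 21.9% fell. A gene was called at an adjusted p under 0.05 (edgeR, quasi-likelihood test, Benjamini-Hochberg over the genes tested). The median log2 fold change of the 10 genes was 2.56 in control and 2.83 in Notch2tm1.1Ecan cells, beside 0.04 and 0.03 for all genes. The 10 genes were chosen with earlier results of these data known. These counts and medians therefore describe the genes and do not test them against all genes. Serum removal is named in the labels for the TNFα groups alone, and in the study's text for both treatments. If the labels are right, TNFα and serum removal cannot be told apart. In RNA from a mixed culture, more cells of a type and more RNA per cell cannot be told apart either.

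Among the sensors, Zbp1 had the largest response. In control cells with vehicle it had 0.501, 0.0765, 0.326 and 7.52 CPM in replicates 1 to 4, and with TNFα 43.7, 54.3, 55.1 and 35.6 CPM. In Notch2tm1.1Ecan cells it had 0.283, 0.260, 0.367 and 0.399 CPM with vehicle and 53.0, 52.0, 52.2 and 47.6 CPM with TNFα. The vehicle levels rest on 9, 1, 5 and 124 counts in control and 4, 5, 7 and 17 counts in Notch2tm1.1Ecan libraries. Apart from control vehicle replicate 4 these counts are low, and the fold changes of Zbp1 rest on them. The vehicle and TNFα libraries did not overlap in either genotype, and control vehicle replicate 4 was far above the other 7 vehicle libraries. Its log2 fold change was 4.46 ± 0.75 (SE, adjusted p = 0.00322) in control and 7.24 ± 0.14 (adjusted p = 8.36e-25) in Notch2tm1.1Ecan cells. Without both control libraries numbered 4, it was 7.31 ± 0.20 in control cells (adjusted p = 3.72e-18). The SE given for Zbp1 can be smaller than the counting error of its vehicle libraries.

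Casp4 followed the same course. Its levels with vehicle were 0.780, 0.688, 0.848 and 8.13 CPM in control and 0.992, 1.04, 1.47 and 1.08 CPM in Notch2tm1.1Ecan cells. With TNFα they were 37.3, 43.4, 45.6 and 29.3 CPM in control and 43.5, 40.5, 37.9 and 53.2 CPM in Notch2tm1.1Ecan cells. All TNFα libraries were above all vehicle libraries. In log2 fold change, the response was 3.89 ± 0.66 (adjusted p = 0.00327) in control cells, 5.79 ± 0.15 without the control libraries numbered 4 (adjusted p = 1.17e-22), and 5.27 ± 0.13 in Notch2tm1.1Ecan cells (adjusted p = 3.99e-22).

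Casp4 lies next to Casp1 on chromosome 9 (5308828-5336783 and 5298508-5307290, both on the plus strand, GRCm39). The start regions of both are shown because Casp4 held motif matches and its neighbor Casp1 none. The 250 bases before the start were taken from RefSeq on GRCm38.p6, which has an entry for 8 of the 10 genes. Both strands were searched for an NF-kB motif (GGG and TTCC with 3 bases between them, in 4.65% of 32851 such windows) and an IRF core motif (GAAA repeated after 2 bases, in 2.98%). Matches are in capitals, and none overlaps another. The sequences are written 5′ to 3′ on the plus strand:
Casp4, chr9:5308599-5308848: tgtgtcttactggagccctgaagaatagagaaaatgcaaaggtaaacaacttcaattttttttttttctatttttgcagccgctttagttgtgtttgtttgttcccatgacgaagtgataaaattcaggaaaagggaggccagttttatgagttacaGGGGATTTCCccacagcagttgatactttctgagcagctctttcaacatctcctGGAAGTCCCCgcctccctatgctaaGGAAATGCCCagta
Casp1, chr9:5298267-5298516: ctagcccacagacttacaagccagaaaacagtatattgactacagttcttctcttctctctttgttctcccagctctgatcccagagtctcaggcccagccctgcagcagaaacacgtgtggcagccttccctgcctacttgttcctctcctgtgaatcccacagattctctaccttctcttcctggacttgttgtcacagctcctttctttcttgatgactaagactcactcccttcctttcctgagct
The window of Casp4 held 3 matches to the NF-kB motif, whose first bases lie 93, 39 and 14 bases before the start, and the other annotated start of Casp4 has the same 3 matches. Neither motif was found in the windows of Casp1, Casp8, Nlrp3, Mlkl, Ripk3, Fas or Ninj1. A match describes letters only, and binding was not measured here.

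Nlrp3, the inflammasome sensor, was close to the limit of detection without TNFα. Its counts with vehicle were 3, 2, 0 and 6 in control libraries (0.167, 0.153, 0 and 0.364 CPM) and 3, 3, 3 and 10 in Notch2tm1.1Ecan libraries (0.213, 0.156, 0.157 and 0.234 CPM). The 1 library with a count of 0 could have held up to 3 counts, and the fold changes of Nlrp3 rest on these low counts. With TNFα, Nlrp3 had 1.72, 1.85, 1.55 and 1.95 CPM in control and 4.49, 3.94, 3.52 and 3.90 CPM in Notch2tm1.1Ecan cells, and these 3 sets of libraries, vehicle and each genotype with TNFα, did not overlap. The log2 fold change with TNFα was 3.33 ± 0.44 (adjusted p = 1.72e-06) in control and 4.33 ± 0.30 (adjusted p = 1.97e-12) in Notch2tm1.1Ecan cells. In control cells without the libraries numbered 4, it was 3.92 ± 0.545.

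Of the proteases, Casp1 was low and rose, whereas Casp8 was of middle level and moved little. Casp1 had 0.278, 0.382, 0.326 and 0.0607 CPM in control and 0.283, 0.623, 0.262 and 0.352 CPM in Notch2tm1.1Ecan cells with vehicle. With TNFα it had 0.624, 1.20, 0.860 and 1.08 CPM in control and 2.47, 1.66, 1.59 and 2.23 CPM in Notch2tm1.1Ecan cells. All TNFα libraries of a genotype were above its vehicle libraries, on 1 to 38 counts per library. The response was a log2 fold change of 1.91 ± 0.46 (adjusted p = 0.00148) in control and 2.38 ± 0.34 (adjusted p = 1.78e-06) in Notch2tm1.1Ecan cells. Casp1 was the one rising gene for which control vehicle replicate 4 was the lowest of its group, and without both control libraries numbered 4 its log2 fold change was 1.5 ± 0.49 (adjusted p = 0.0124). Casp8 had 25.1 to 28.3 CPM in control cells with vehicle and 26.4 to 32.0 CPM with TNFα, and these ranges overlapped (log2 fold change 0.13, adjusted p = 0.197). In Notch2tm1.1Ecan cells the vehicle range was 26.0 to 27.1 CPM and the TNFα range 28.7 to 31.3 CPM (log2 fold change 0.24 ± 0.08, adjusted p = 0.0123). Without Notch2tm1.1Ecan TNFα replicate 3, that adjusted p was 0.0517. The difference between the Casp8 responses did not pass the test (log2 difference 0.11 ± 0.11, adjusted p = 0.825).

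The genes whose products open the membrane all rose. Gsdmd had 7.74, 6.35, 8.29 and 23.7 CPM with vehicle and 85.9, 93.1, 102 and 75.1 CPM with TNFα in control cells. In Notch2tm1.1Ecan cells it had 10.98, 8.93, 8.23 and 10.4 CPM with vehicle and 104, 98.1, 101 and 79.3 CPM with TNFα. All TNFα libraries were above all vehicle libraries, control vehicle replicate 4 included. As a log2 fold change, this was 2.97 ± 0.42 (adjusted p = 0.00141) in control and 3.38 ± 0.10 (adjusted p = 3.19e-19) in Notch2tm1.1Ecan cells, and 3.68 ± 0.09 in control cells without the libraries numbered 4.

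Mlkl, the executor of necroptosis, had 8.86, 6.88, 7.90 and 14.9 CPM in control and 8.29, 8.51, 10.3 and 10.5 CPM in Notch2tm1.1Ecan cells with vehicle. With TNFα it had 46.9, 48.2, 54.6 and 38.8 CPM in control and 53.2, 52.8, 51.7 and 51.5 CPM in Notch2tm1.1Ecan cells. Neither genotype had overlap between treatments. Its log2 fold change was 2.32 ± 0.25 (adjusted p = 0.0003) in control and 2.51 ± 0.09 (adjusted p = 5.71e-19) in Notch2tm1.1Ecan cells. In control cells without the libraries numbered 4, it was 2.69 ± 0.09.

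Ninj1 rose less, from a higher level. It had 87.4, 82.7, 81.6 and 92.1 CPM with vehicle and 206, 192, 220 and 184 CPM with TNFα in control cells. In Notch2tm1.1Ecan cells it had 64.9, 59.5, 65.7 and 63.5 CPM with vehicle and 164, 160, 160 and 173 CPM with TNFα. The 4 groups did not overlap, and each Notch2tm1.1Ecan group lay below the control group with the same treatment. The log2 fold change with TNFα was 1.26 ± 0.06 (adjusted p = 5.37e-12) in control and 1.42 ± 0.06 (adjusted p = 5.43e-17) in Notch2tm1.1Ecan cells.

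Ripk3, the kinase that activates MLKL, was the gene that fell. With vehicle it had 40.8, 44.7, 44.6 and 38.2 CPM in control and 52.4, 40.0, 41.4 and 43.3 CPM in Notch2tm1.1Ecan cells. With TNFα it had 32.3, 26.3, 28.2 and 30.2 CPM in control and 35.9, 30.3, 29.2 and 30.6 CPM in Notch2tm1.1Ecan cells. Every TNFα library was below every vehicle library of either genotype. Ripk3 fell by 0.48 ± 0.07 on the log2 scale in control cells (adjusted p = 9.39e-06) and by 0.43 ± 0.09 in Notch2tm1.1Ecan cells (adjusted p = 0.000167). The RNA of the kinase and of its substrate Mlkl thus moved in opposite directions in both genotypes.

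Fas, the death receptor, had 11.4, 12.2, 14.4 and 28.0 CPM in control and 11.2, 13.2, 14.1 and 13.2 CPM in Notch2tm1.1Ecan cells with vehicle. With TNFα it had 109, 114, 126 and 102 CPM in control and 114, 114, 109 and 114 CPM in Notch2tm1.1Ecan cells. The treatments did not overlap, and the genotypes overlapped with either treatment. In log2 fold change, the response was 2.81 ± 0.31 (adjusted p = 0.000376) in control cells, 3.24 ± 0.08 without the libraries numbered 4, and 3.16 ± 0.08 in Notch2tm1.1Ecan cells (adjusted p = 1.33e-22).

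**Figure D2:**
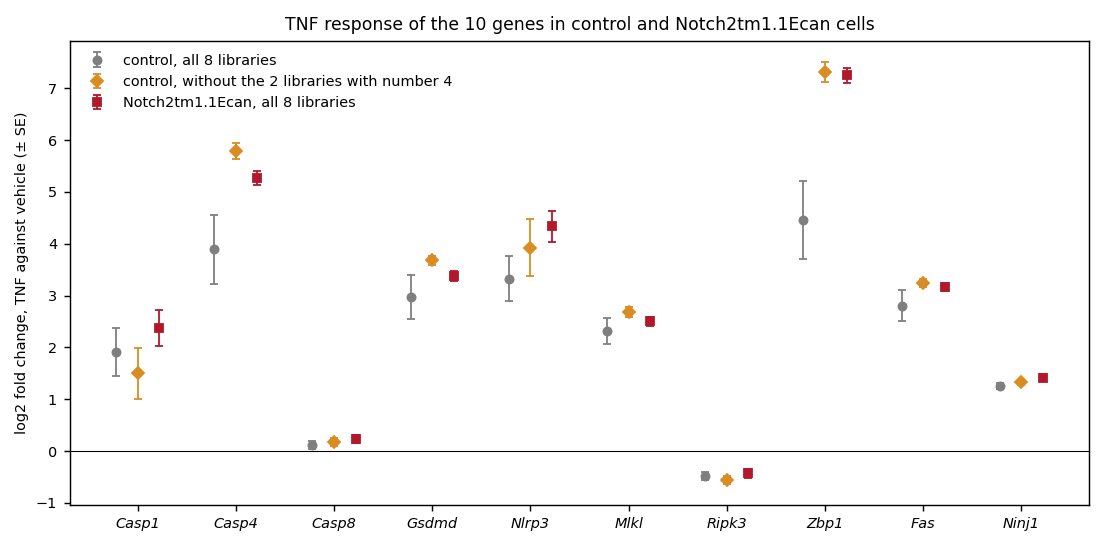
Log2 fold change of TNFα against vehicle (± SE, edgeR) for the 10 genes in control cells with all 8 libraries, in control cells without the 2 libraries numbered 4, and in Notch2tm1.1Ecan cells. Zbp1 in control cells is at 4.46 with all libraries and at 7.31 without those numbered 4, beside 7.24 in Notch2tm1.1Ecan cells. The SE is derived from the test and can be smaller than counting error where vehicle counts are few, as for Zbp1.

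Leaving out each of the 8 libraries of a comparison in turn kept the call of the 9 genes called in control cells in all fits, and of 9 of the 10 genes called in Notch2tm1.1Ecan cells, Casp8 being the exception given above. Without control vehicle replicate 4 alone, the log2 fold change in control cells rose to 5.67 for Casp4, 7.19 for Zbp1, 3.60 for Gsdmd and 3.98 for Nlrp3. Summed levels of markers of other cells also differed between treatments. The 8 neutrophil markers summed to 0.130 to 0.546 CPM with vehicle and 1.30 to 2.65 CPM with TNFα in control cells, and to 0.0524 to 0.623 and 1.39 to 2.28 CPM in Notch2tm1.1Ecan cells, and 6 of the 8 had no more than 3 counts in any library. The summed level of 20 macrophage markers was 88.9 to 96.1 CPM with vehicle and 99.4 to 119 CPM with TNFα in control cells, with 5 of 19 tested markers higher and 1 lower, beside 23.3% and 20.9% of all genes. In Notch2tm1.1Ecan cells the sum was 173.5 to 207 CPM with vehicle and 216 to 249 CPM with TNFα, with 10 of 20 higher and 1 lower, beside 22.6% and 21.9%. In control cells the sums of vehicle and TNFα libraries did not overlap for T and NK cell markers (0 to 0.130 and 0.435 to 0.936 CPM), mast cell markers (3.12 to 3.60 and 4.36 to 5.81 CPM), endothelial markers (10.0 to 12.5 and 13.0 to 15.5 CPM) or skeletal muscle markers (24.3 to 30.4 and 12.1 to 22.2 CPM). In Notch2tm1.1Ecan cells the sums of these 4 lists overlapped, at 0.0524 to 0.425 and 0.278 to 0.856 CPM, 2.86 to 5.39 and 3.77 to 5.29 CPM, 20.3 to 24.7 and 20.8 to 28.2 CPM, and 39.9 to 47.4 and 21.6 to 44.5 CPM. Of their tested markers, 1 of 2, 1 of 2, 1 of 8 and 1 of 8 were higher in control cells. In Notch2tm1.1Ecan cells 1 of 2, 1 of 3, 0 of 8 and 1 of 8 were higher. Of skeletal muscle markers, 1 was lower in control and 2 in Notch2tm1.1Ecan cells. These counts are to be read against the same shares of all genes. For T and NK cells 7 of 9 and for mast cells 4 of 7 markers had no more than 3 counts in any library. Of the 15 chondrocyte markers, 12 fell with TNFα in each genotype, and their sum went from 52890-56110 to 36990-43840 CPM in control cells and from 32690-38670 to 20580-22890 CPM in Notch2tm1.1Ecan cells. Their part in the TNFα responses was not tested.

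Other genes of the same pathways were examined in 4 lists with 67 genes. In control cells 34 of the 60 tested rose and 7 fell, beside 23.3% and 20.9% of all genes. In Notch2tm1.1Ecan cells 32 of 61 rose and 6 fell, beside 22.6% and 21.9%. The rises shared by both genotypes were 31 genes, of 34 in control and of 32 in Notch2tm1.1Ecan cells, and no gene rose in 1 genotype and fell in the other. The share of all genes that rose in both genotypes is not given here, so no result about the lists is read from this overlap. The median log2 fold change was 0.42 in control and 0.37 in Notch2tm1.1Ecan cells, beside 0.04 and 0.03 for all genes. The lists were also chosen with earlier results of these data known, so these values do not test them against all genes. The counts of each list below are to be read against the same shares.

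Among other inflammasome and pyroptosis genes, 9 of 15 tested rose in control and 8 of 16 in Notch2tm1.1Ecan cells, and none fell. Casp12, an inflammatory caspase gene, rose from 23.3 ± 3.37 to 49.9 ± 0.945 CPM in control and from 18.5 ± 3.21 to 58.1 ± 2.43 CPM in Notch2tm1.1Ecan cells (SD, n = 4; log2 fold changes 1.14 and 1.68). Il1b, which codes for the cytokine that caspase 1 matures, had 0, 0, 0 and 1 counts with vehicle and 0, 2, 10 and 4 counts with TNFα in control libraries. In Notch2tm1.1Ecan libraries it had no count with vehicle and 17, 9, 4 and 3 counts with TNFα, which was at least 4.5-fold higher (against 3 counts per library, adjusted p = 1.62e-05). Nlrc4, another inflammasome sensor, had no count in control libraries with vehicle and 4, 2, 6 and 4 counts with TNFα, at least 1.25-fold higher (adjusted p = 0.00408). In Notch2tm1.1Ecan libraries it had 1, 0, 3 and 1 counts with vehicle and 2, 9, 6 and 0 with TNFα (adjusted p = 0.0255, but 0.0819 with DESeq2). Aim2, a sensor of cytosolic DNA, had 0 to 1 counts with vehicle and 2 to 8 with TNFα in control libraries (at least 1.46-fold, adjusted p = 0.0198). In Notch2tm1.1Ecan libraries Aim2 had 3, 9, 3 and 7 counts with vehicle and 4, 9, 10 and 0 with TNFα, which overlapped (log2 fold change 0.80, adjusted p = 0.29). Leaving out 1 library took the call from Aim2 and Il1b in control cells and from Nlrc4 in Notch2tm1.1Ecan cells, with adjusted p values up to 0.0637, 0.0754 and 0.15.

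Among necroptosis genes and their brakes, 9 of 15 rose and 1 fell in control cells, and 10 rose and 1 fell in Notch2tm1.1Ecan cells. Tnfaip3, whose product A20 restrains NF-kB signaling and necroptosis, rose from 8.32 ± 8.78 to 112 ± 9.55 CPM in control and from 4.01 ± 0.554 to 147 ± 17.1 CPM in Notch2tm1.1Ecan cells. The log2 fold changes were 3.77 ± 0.58 (adjusted p = 0.00214) and 5.18 ± 0.10 (adjusted p = 6.98e-25), with 21.5 CPM in control vehicle replicate 4 against 3.56 to 4.503 CPM in the other control libraries with vehicle. Birc3, a ubiquitin ligase of the TNF receptor complex, rose by log2 fold changes of 3.12 and 3.75. Tlr3, a receptor for double-stranded RNA, rose by log2 fold changes of 2.82 and 3.17. Without both control libraries numbered 4, the control values were 4.93 for Tnfaip3, 3.68 for Birc3 and 3.40 for Tlr3.

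Among death receptor genes, 8 of 13 rose and 1 fell in each genotype. Tnfsf10, which codes for the ligand TRAIL, had 0, 0, 0 and 27 counts in control libraries with vehicle and 10.2 to 13.2 CPM with TNFα (log2 fold change 4.76 ± 0.74, adjusted p = 0.00214), and all of its counts with vehicle came from control vehicle replicate 4. Without both control libraries numbered 4, the fitted value for Tnfsf10 in control cells was 10.58, which is against vehicle libraries at 0 and is no bound. Its interaction then went from 2.80 (adjusted p = 0.681) to -3.16 (adjusted p = 0.675), a value that rests on the same vehicle libraries at 0. In Notch2tm1.1Ecan libraries it had at most 3 counts with vehicle and 7.79 to 10.7 CPM with TNFα, at least 59.1-fold higher (adjusted p = 1.09e-15). Bid, which links caspase 8 to mitochondria, rose by log2 fold changes of 2.75 in control and 2.98 in Notch2tm1.1Ecan cells. Without the control libraries numbered 4, Bid was at 3.18 in control cells.

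Of 17 BCL2 family and mitochondrial genes, 8 were higher and 5 lower in control cells, beside 23.3% and 20.9% of all genes. In Notch2tm1.1Ecan cells 6 were higher and 4 lower, beside 22.6% and 21.9%, and no result about the list is read from these counts. Bbc3, which codes for the proapoptotic PUMA, rose from 15.96 ± 2.16 to 35.3 ± 2.29 CPM in control and from 13.8 ± 0.628 to 34.1 ± 3.94 CPM in Notch2tm1.1Ecan cells. Bok, a proapoptotic relative of BAX, fell by 0.81 on the log2 scale in control (adjusted p = 5.06e-06) and by 1.39 in Notch2tm1.1Ecan cells (adjusted p = 2.36e-12). Bmf and Bcl2l11, which code for proteins that oppose BCL2, rose in both genotypes, by log2 fold changes of 1.16 and 0.76 for Bmf and 0.83 and 0.89 for Bcl2l11 in control and Notch2tm1.1Ecan cells. Pmaip1, of the same kind, rose by 0.95 in control cells (adjusted p = 4.08e-05) and was at 0.37 in Notch2tm1.1Ecan cells (adjusted p = 0.0847).

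**Figure D3:**
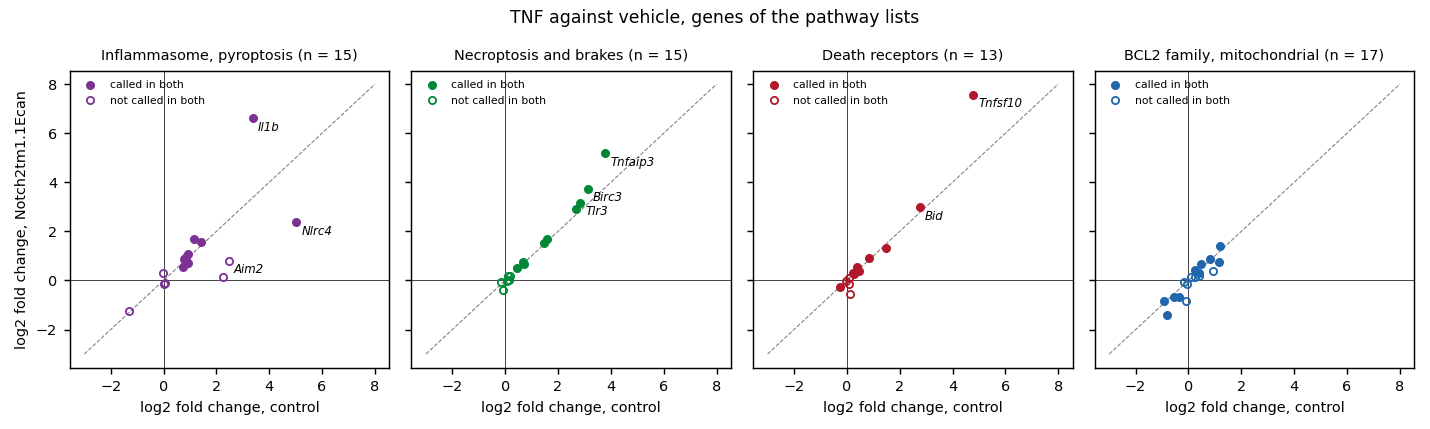
Log2 fold change of TNFα against vehicle in Notch2tm1.1Ecan (vertical) and control cells (horizontal) for the tested genes of the 4 pathway lists, with filled points for genes called in both genotypes, a dashed line at equal values, and names for described genes with a value over 2. Tnfsf10, Il1b and Tnfaip3 lie above the line with all control libraries, and Il1b has at most 1 count per library with vehicle. Without those numbered 4, Tnfaip3 is at 4.93 in control against 5.18 in Notch2tm1.1Ecan cells. The control value of Tnfsf10 is then 10.58, which is against vehicle libraries at 0 and cannot be ranked against 7.57 in Notch2tm1.1Ecan cells.

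The comparison of genotypes with vehicle asked whether the Notch2 mutation alone moved these genes. The comparisons between genotypes use the same libraries as those between treatments and are not independent of them. Of the 10 genes, 1 (Ninj1) was lower in Notch2tm1.1Ecan cells and none was higher, where 4.35% of 19432 genes were lower and 6.19% higher. Ninj1 fell by 0.44 ± 0.06 on the log2 scale (adjusted p = 7.12e-06), from 86.0 ± 4.81 to 63.4 ± 2.76 CPM (SD, n = 4). It kept the call in each of 8 fits with 1 library left out, with adjusted p values up to 0.000127. The log2 fold changes of Zbp1 (-2.64 ± 1.38, adjusted p = 0.352) and Casp4 (-1.21 ± 0.945, adjusted p = 0.559) had errors of the same order as their size. Without control vehicle replicate 4 they were 0.08 ± 0.57 and 0.54 ± 0.32. With all libraries, the other 7 genes differed by no more than 0.56 on the log2 scale, with adjusted p values of 0.619 or more. Casp8 was the closest to equal, at 26.5 ± 1.37 CPM in control and 26.5 ± 0.468 CPM in Notch2tm1.1Ecan cells. Without control vehicle replicate 4, Gsdmd was at 0.35 ± 0.13 (adjusted p = 0.0951), Mlkl at 0.25 ± 0.13 (0.265) and Nlrp3 at 0.81 ± 0.84 (0.662). Casp1 was then at 0.21, Fas at 0.03, Casp8 at 0.02 and Ripk3 at 0.01, and none of these 7 genes passed the test. Of the 59 tested pathway genes 1 was higher and 2 were lower. Bok rose from 15.7 ± 2.01 to 28.4 ± 3.32 CPM (adjusted p = 1.52e-06), P2rx7, an ATP receptor that can activate NLRP3, fell by 0.48 (adjusted p = 0.0277), and Tnfrsf10b, a TRAIL receptor gene, fell by 0.21 (adjusted p = 0.022). The calls of P2rx7 and Tnfrsf10b were lost in 4 and 3 of the 8 fits with 1 library left out.

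The comparison of genotypes with TNFα asked whether the mutation changed the levels reached. Casp1 and Nlrp3 were higher in Notch2tm1.1Ecan cells, Ninj1 was lower, and the other 7 did not pass the test, where 5.63% of 19227 genes were higher and 4.31% lower. Casp1 and Nlrp3 are among the genes that the study listed as changed on these same libraries, so their calls are not independent evidence. Nlrp3 reached 1.77 ± 0.175 CPM in control and 3.96 ± 0.399 CPM in Notch2tm1.1Ecan cells, 2.26-fold higher (log2 fold change 1.17 ± 0.20, adjusted p = 0.000171). Casp1 reached 0.939 ± 0.252 and 1.99 ± 0.432 CPM, 2.03-fold higher (log2 fold change 1.02 ± 0.30, adjusted p = 0.0239). The genotypes did not overlap for either gene. Nlrp3 passed the test in all 8 fits with 1 library left out. Casp1 lost the call without control TNFα replicate 1 (adjusted p = 0.0713), control TNFα replicate 3 (0.0718) or Notch2tm1.1Ecan TNFα replicate 1 (0.131), with log2 fold changes of 0.86 to 1.14 over the 8 fits. The Notch2tm1.1Ecan TNFα replicate 4, which was the shallowest library, had 8 counts of Casp1 and 14 of Nlrp3.

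Macrophage markers were also higher in Notch2tm1.1Ecan cells. With TNFα 17 of 19 tested markers were higher and none was lower, beside 5.63% and 4.31% of all genes. Their sum was 99.4 to 119 CPM in control and 216 to 249 CPM in Notch2tm1.1Ecan cells. With vehicle 15 of 20 were higher and none was lower, beside 6.19% and 4.35% of all genes. The sums with vehicle were 88.9 to 96.1 and 173.5 to 207 CPM, while Casp1 (0.262 ± 0.141 and 0.380 ± 0.166 CPM) and Nlrp3 (0.171 ± 0.149 and 0.190 ± 0.0397 CPM) did not pass the test. None of the 20 macrophage markers was at 0 in a group. Markers of some other cells differed between the genotypes too. No tested neutrophil, T and NK cell or mast cell marker passed the test between genotypes with either treatment. With TNFα, 3 of 8 endothelial markers were higher (sums of 13.0 to 15.5 and 20.8 to 28.2 CPM), 2 of 8 skeletal muscle markers (12.1 to 22.2 and 21.6 to 44.5 CPM) and 6 of 8 fibroblast and perichondrium markers (29950 to 32970 and 34570 to 41000 CPM). None was lower, beside the shares of all genes with TNFα given above, and the skeletal muscle sums overlapped. With vehicle, 4 of 8, 4 of 8 and 5 of 8 markers of these lists were higher, and 1 fibroblast and perichondrium marker was lower, beside 6.19% and 4.35%. The part of these cells in the differences of Casp1 and Nlrp3 was not tested.

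Ninj1 was lower in Notch2tm1.1Ecan cells with TNFα as well, at 164 ± 6.14 against 200.2 ± 15.7 CPM (log2 fold change -0.27 ± 0.06, adjusted p = 0.00389), and passed the test in all 8 fits with 1 library left out. All 15 chondrocyte markers were lower in Notch2tm1.1Ecan cells with either treatment, beside 4.35% of all genes with vehicle and 4.31% with TNFα. Their part in the difference of Ninj1 was not tested. Fas had 112 ± 10.3 CPM in control and 112 ± 2.57 CPM in Notch2tm1.1Ecan cells with TNFα (log2 fold change 0.01 ± 0.06, adjusted p = 0.936). For Zbp1, Casp4, Gsdmd, Mlkl, Ripk3 and Casp8 the log2 fold changes were 0.12 to 0.17, and of these Mlkl had the lowest adjusted p (0.209). Without control TNFα replicate 4 they were 0.01 for Zbp1, 0.007 for Casp4, 0.05 for Gsdmd, 0.07 for Mlkl, 0.14 for Ripk3 and 0.08 for Casp8.

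**Figure D4:**
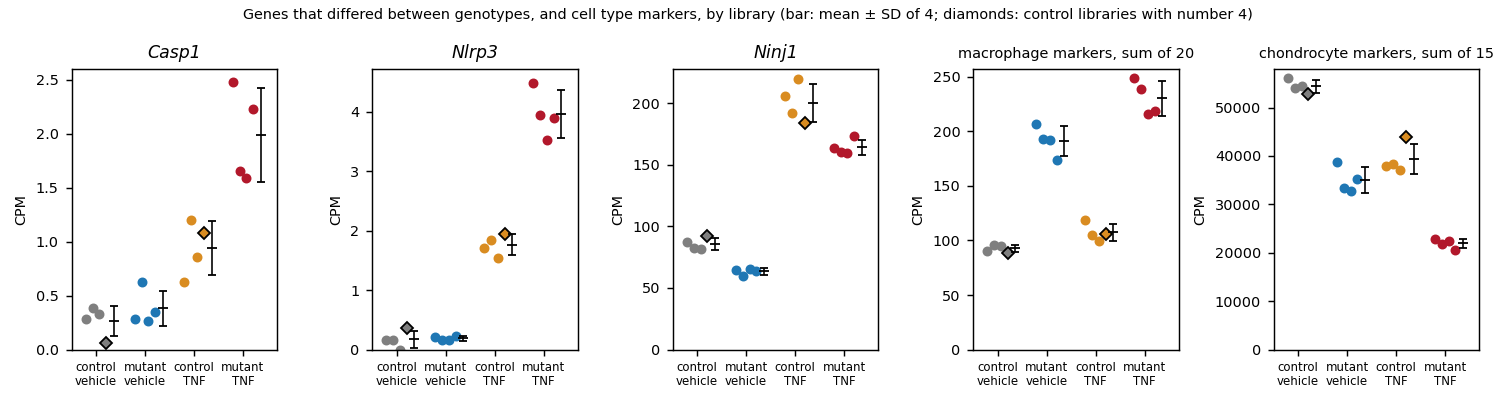
CPM of Casp1, Nlrp3 and Ninj1 and summed CPM of 20 macrophage and 15 chondrocyte markers in the 16 libraries (mutant, Notch2tm1.1Ecan), with diamonds for the control libraries numbered 4 and bars for the mean ± SD of 4. Nlrp3 is at 3.52 to 4.49 CPM in Notch2tm1.1Ecan cells with TNFα and at 1.55 to 1.95 CPM in control cells, and the macrophage sums of the genotypes do not overlap with either treatment.

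Of the 61 pathway genes tested between the genotypes with TNFα, 2 were higher and 3 lower, beside 5.63% and 4.31% of all genes. Tnfaip3 rose by 0.39 ± 0.07 on the log2 scale (adjusted p = 0.000612) and Casp12 by 0.23 ± 0.06 (adjusted p = 0.0176). Both calls were lost when all 16 libraries entered 1 fit (adjusted p = 0.583 and 0.15), and that of Casp12 also in 4 of the 8 fits with 1 library left out. Tnfaip3 kept its call in these 8 fits (adjusted p up to 0.00415), and its libraries did not overlap between the genotypes. Tnfrsf25, a death receptor gene, was lower, at 2.05 ± 0.447 against 4.09 ± 1.37 CPM (SD, n = 4; adjusted p = 0.00312), although the libraries overlapped. Bmf fell by 0.66 ± 0.11 (adjusted p = 0.000145) and Bcl2l1, which codes for the antiapoptotic BCL-XL, by 0.32 ± 0.06 (adjusted p = 0.000802).

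The interaction asked whether the response to TNFα differed between the genotypes. None of the 10 genes passed the test in edgeR, where 0.474% of 21321 genes did, and none did in DESeq2, which gave no adjusted p for Zbp1. At an unadjusted p under 0.05 there was 1, Zbp1 (log2 difference 2.78 ± 1.16, adjusted p = 0.512), and it was -0.07 ± 0.45 without the control libraries numbered 4. The interaction of Nlrp3 was 1.00 ± 0.65 (adjusted p = 0.711) and that of Casp1 0.47 ± 0.61 (adjusted p = 0.89), so the higher levels of both genes in Notch2tm1.1Ecan cells with TNFα were not shown to be a larger response. Without the control libraries numbered 4, these values were 0.40 ± 0.88 and 0.87 ± 0.62. None of the 64 tested pathway genes passed the test in edgeR, and 1 was called by DESeq2.

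The gene most like each of the 10 over the 16 libraries was found by Pearson's r of log2 CPM among 21180 genes. All 16 libraries share the TNFα contrast, so a high r mostly describes that contrast, and no p is given. Casp4 was nearest to Ccl2, a chemokine gene (r = 0.999), Fas to Ripk2, a kinase gene of the NOD receptors (0.998), Zbp1 to Igtp, an immunity-related GTPase gene (0.998), and Gsdmd to Tap2, a peptide transporter gene (0.997). Mlkl was nearest to Gprc5b (0.996), Ninj1 to Lcn2 (0.995), Nlrp3 to Sash1 (0.987), Ripk3 to Tufm (0.963), Casp1 to Sri (0.941) and Casp8 to Tnxb (0.901). For Fas, 877 genes had an r over 0.95, and for Nlrp3 there were 290, whereas Casp1 and Casp8 had none.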

How the data were processed

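The values used are raw counts per gene, whole numbers that the authors deposited as 1 table per library. The authors prepared stranded mRNA libraries, sequenced them as paired ends in 1 pool, trimmed and mapped the reads with HISAT2, and counted them with htseq-count. The labels give HISAT2 2.1.0 and GRCm38, whereas the study's text gives a later HISAT2 and GRCm39; the strand setting is not given in the sources used here. Entries that name no gene (8.81 to 12.1% of a library) were left out. Gene names, positions and exon lengths are from GENCODE M39 on GRCm39, and 665 identifiers without an entry held 0.0182% of counts. No member shares exon bases with another gene that was counted.

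Counts were normalized with TMM in edgeR 4.0.16 (R 4.3.3), genes with fewer than 10 counts in total in a comparison were removed, and a robust quasi-likelihood model was fitted to the 8 libraries of each comparison, or all 16 for the interaction. SE is the absolute log2 fold change over the root of F. For a large response against few vehicle counts, this value can be smaller than counting error and then overstates precision. Adjusted p values are Benjamini-Hochberg over all genes tested, and the pipeline was tested on simulated data. The simulation had the same dispersion for all genes, no outlying library, and no changed gene at a level as low as Casp1 or Nlrp3. It therefore does not cover the control libraries numbered 4 or such low genes. Alternatives were DESeq2 1.42.0, RLE, other filters, a fold cutoff, a single fit to the 16 libraries, a replicate block, each library left out, and both control libraries numbered 4 left out. The named list genes are the up to 3 with the largest absolute log2 fold change among those called in each list and comparison. A gene that this rule names and a motif that was searched are not reported here. The genes, lists and tests were chosen with earlier results of these data known. A count of 3 in a library was taken as the floor, and it covers counting error only.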

Additional observations from a re-analysis of the deposited data

Results flagged for a closer look

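Of 40 sets of 4 libraries (10 genes in 4 groups), 5 held a library that lay farther from the others than Dixon's 95% limit, and chance flags about 1 in 20. In 3 of the 5 the library was control vehicle replicate 4, with 8.13 CPM of Casp4, 23.7 CPM of Gsdmd and 7.52 CPM of Zbp1. Those 3 values are not independent, since they come from 1 library. The other 2 were small in size. Casp8 had 32.0 CPM in control TNFα replicate 1, above 26.4 to 27.3 CPM in the other control libraries with TNFα. Fas had 109 CPM in Notch2tm1.1Ecan TNFα replicate 3, below 114 CPM in each of the others. No gene among the 10 differed between the genotypes in its response by the test of the interaction.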

How the results depend on the processing

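Of the values of the 10 genes under other settings, 288 kept direction and side of the threshold, 1 lost the call and 11 changed direction. With 1 library left out, 453 kept both, 4 lost the call and 23 changed direction. None of the values that changed direction had passed the test, and the cause was not tested. DESeq2 gave no adjusted p for Zbp1 in control cells, so that it called 8 of the 10 genes there.

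Casp8 between genotypes with vehicle was at 0.00055 and went to -0.0056 with DESeq2, -0.0062 with RLE, -0.0028 with filterByExpr, -0.0033 with no filter beyond 1 count, -0.00053 with all 16 libraries and -0.00038 with the replicate block. Without both control libraries numbered 4, the interaction was -0.52 for Casp4, -0.29 for Gsdmd, -0.18 for Mlkl, -0.066 for Zbp1 and -0.077 for Fas. For the comparisons between genotypes, that setting is the same as leaving out the 1 control library numbered 4.

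With 1 library left out in turn, the log2 difference between genotypes with vehicle ranged from -1.53 to 0.54 for Casp4, -0.024 to 0.024 for Casp8, -0.50 to 0.031 for Fas, -0.46 to 0.35 for Gsdmd, -0.15 to 0.25 for Mlkl, -0.24 to 0.81 for Nlrp3, -0.013 to 0.11 for Ripk3 and -3.01 to 0.077 for Zbp1. That of Fas with TNFα ranged from -0.046 to 0.060. The interaction ranged from -0.41 to 1.72 for Casp4, -0.046 to 0.50 for Fas, -0.24 to 0.58 for Gsdmd, -0.11 to 0.31 for Mlkl and -0.0175 to 0.14 for Ripk3.

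With a fold cutoff of 1 on the log2 scale, calls over all genes were 2279 and 2720 for TNFα in control and Notch2tm1.1Ecan cells (8542 and 8745 without it), 244 and 272 between genotypes with vehicle and with TNFα (2048 and 1912) and 10 for the interaction (101). Calls among the 67 pathway genes were then 16, 16, 0 and 1 (41, 38, 3 and 5), and Ninj1 with vehicle was lost, leaving 0 of the 10 genes. With no filter beyond 1 count, 6 pathway genes were called between genotypes with vehicle, and the interaction had 266 calls, 2 of them pathway genes. DESeq2 gave 174 interaction calls. The interaction had 1 pathway gene with DESeq2, with RLE and with the replicate block. With 1 library left out, pathway calls ranged from 1 to 4 between genotypes with vehicle, 4 to 11 with TNFα and 0 to 1 for the interaction, and all interaction calls from 51 to 156. Calls among the 10 genes ranged from 2 to 3 between genotypes with TNFα.

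Same-numbered libraries were not paired by the labels, and the correlation of their deviations ranged from -0.19 to 0.15. With the replicate block, Zbp1 in control cells (log2 fold change 4.63) had an adjusted p of 0.0509, Il1b in control cells 0.0557 and Nlrc4 in Notch2tm1.1Ecan cells 0.1, and 8 and 10 of the 10 genes were called for TNFα, 1 and 3 between genotypes and 0 for the interaction. The shallowest library, with 3439726 counts, limits what can be said of Casp1 and Nlrp3.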
